A study of Mus musculus with 2 samples.

Results

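The genes described here encode heat shock proteins and chaperones, the machinery that folds newly made proteins and refolds damaged ones. The set comprised 45 named genes, and every probe set whose platform gene symbol was one of them was used. Of the 45 genes, 43 had a value, from 118 of the 34945 probe sets with 1 gene symbol, and 18193 genes were measured in all. Hsp90ab1 and Hsf1 had no probe set under their symbol in the annotation used and were not analysed here. The samples were mouse regulatory T cells (Tregs) induced in vivo through dendritic cells (DCs), sorted on CD25 and Foxp3 after immunization. There was 1 single-colour array of Hopx-/- cells and 1 of Hopx-sufficient cells, both with total RNA as starting material and biotin as label. Hopx is a small homeodomain-only cofactor that does not itself bind DNA. The strain, the age of the mice, the deleted part of Hopx, the alleles of the Hopx-sufficient cells and the number of mice behind each array are not given in the sources used here.

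Hsp70 proteins bind short hydrophobic stretches of unfolded chains in a cycle driven by ATP; J-domain proteins deliver the chains to them, and nucleotide exchange factors release them. Hsp90 acts later on partly folded clients such as kinases and steroid receptors, the CCT ring encloses actin and tubulin, and the mitochondria and the endoplasmic reticulum (ER) hold sets of their own. In T cells, activation and growth are known to go with a larger demand for chaperones, and heat or unfolded protein induces many of these genes through heat shock factor 1.

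The table holds log-scale values that were centred on the mean of both arrays, so the columns mirror each other and carry a difference but no level. Neither detection nor the labelled cell type could therefore be checked by level. Only the finest numerical steps of the values were taken as a coarse sign of a low value before centring. They occurred in 3.39% of the member probe sets and 8.79% of all 1-symbol probe sets. A difference below is the log2 difference, Hopx-/- minus Hopx-sufficient, less the median of all 1-symbol probe sets (0.0075), and a gene's value is the mean over its probe sets. With 1 array per genotype there is no replicate error, no test and no p-value. The available spread is that between probe sets of 1 gene, with a standard deviation of 0.18 over the array and 0.19 within the chaperone genes. Hopx itself was 35.6-fold lower on the Hopx-/- array (2 probe sets, -5.44 and -4.87).

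Chaperone genes were mostly lower in Hopx-/- cells, by small amounts. Of the 43 measured genes 35 were lower and 8 higher, where 49.9% of all genes were lower and 50.1% higher. The median difference was -0.15, corresponding to 1.11-fold lower, against 0.00 over all measured genes (0.00078). It was -0.26 with the most different probe set of each gene, a choice for which no median over all genes was taken. By a log2 difference of 0.32 or more, a mild rule of size, 12 of the 43 genes were lower, where 6.93% of all genes were. None was higher by that much, where 4.09% of all genes were. Only Hspa1b and Hspd1 were at least 1.5-fold lower, where 1.31% of all genes were. None was 1.5-fold higher, where 0.297% of all genes were. Hspa1b was the single member past 2-fold, where 0.143% of all genes were that much lower. In the ranking of all genes from the lowest difference, 11 of the 43 lay within the lowest 5% and none within the highest 10%. Among single probe sets 95 of 118 were lower (80.5%), where 50% of all probe sets were, a share fixed by the centring on their median. Of the 118 probe sets, 1 had equal values on both arrays and counted as lower only through the centring.

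**Figure D1:**
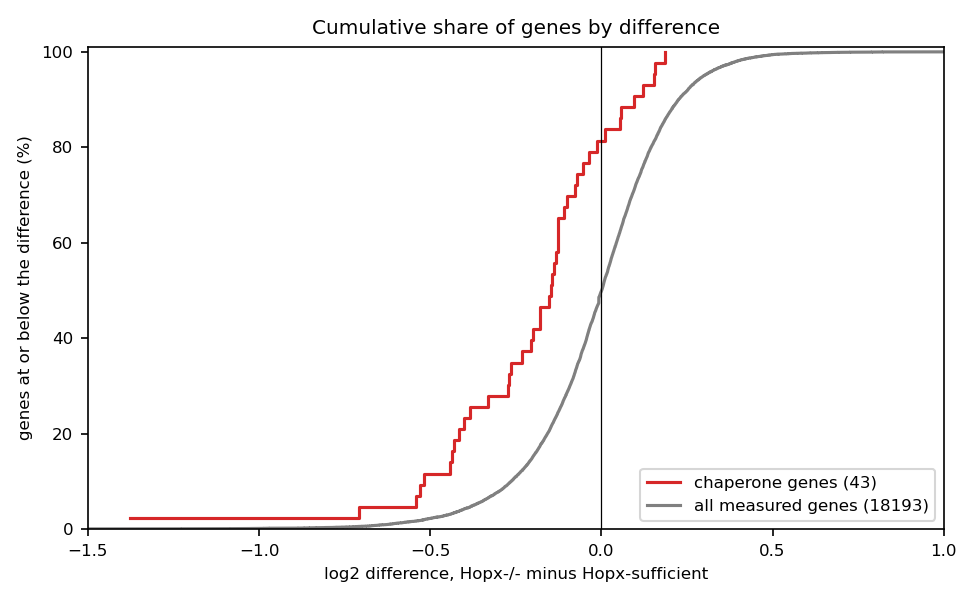
Cumulative share of genes (%, vertical axis) at or below each log2 difference, Hopx-/- minus Hopx-sufficient (horizontal axis), for the 43 chaperone genes and for all 18193 measured genes. The curve of the chaperone genes lies to the left of that of all genes: 81.4% of them are below 0, against 49.9% of all genes. The few genes beyond the ends of the axis, Hopx among them, are not drawn.

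Of the 32 members with 2 or more probe sets, 19 had all of them lower, 2 had all of them higher and 11 had both signs. All probe sets were thus lower in 59.4% of these members, against 24.2% of the 9010 genes on the array with 2 or more, and both signs occurred in 34.4% of the members, against 52.4% of those genes. A further 11 members rested on 1 probe set each. Spike-ins of bacterial and phage transcripts, added at hybridization, give a scale for differences from that step on, not for earlier steps. Their 18 probe sets ran from -0.22 to 0.01 with a median of -0.12. Other bacterial control probe sets, left out of this range, ran from -0.17 to 0.78, and those of 18S ribosomal RNA from 0.34 to 0.45. Of the 43 genes, 16 were lower than any of the 18 spike-in probe sets, where 13% of all genes were. Within the range of these 18 lay 19 genes, and 8 lay above it. The part of a technical shift in these differences was not tested. In bulk RNA of this kind, fewer cells of a type and less RNA per cell cannot be told apart.

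**Figure D2:**
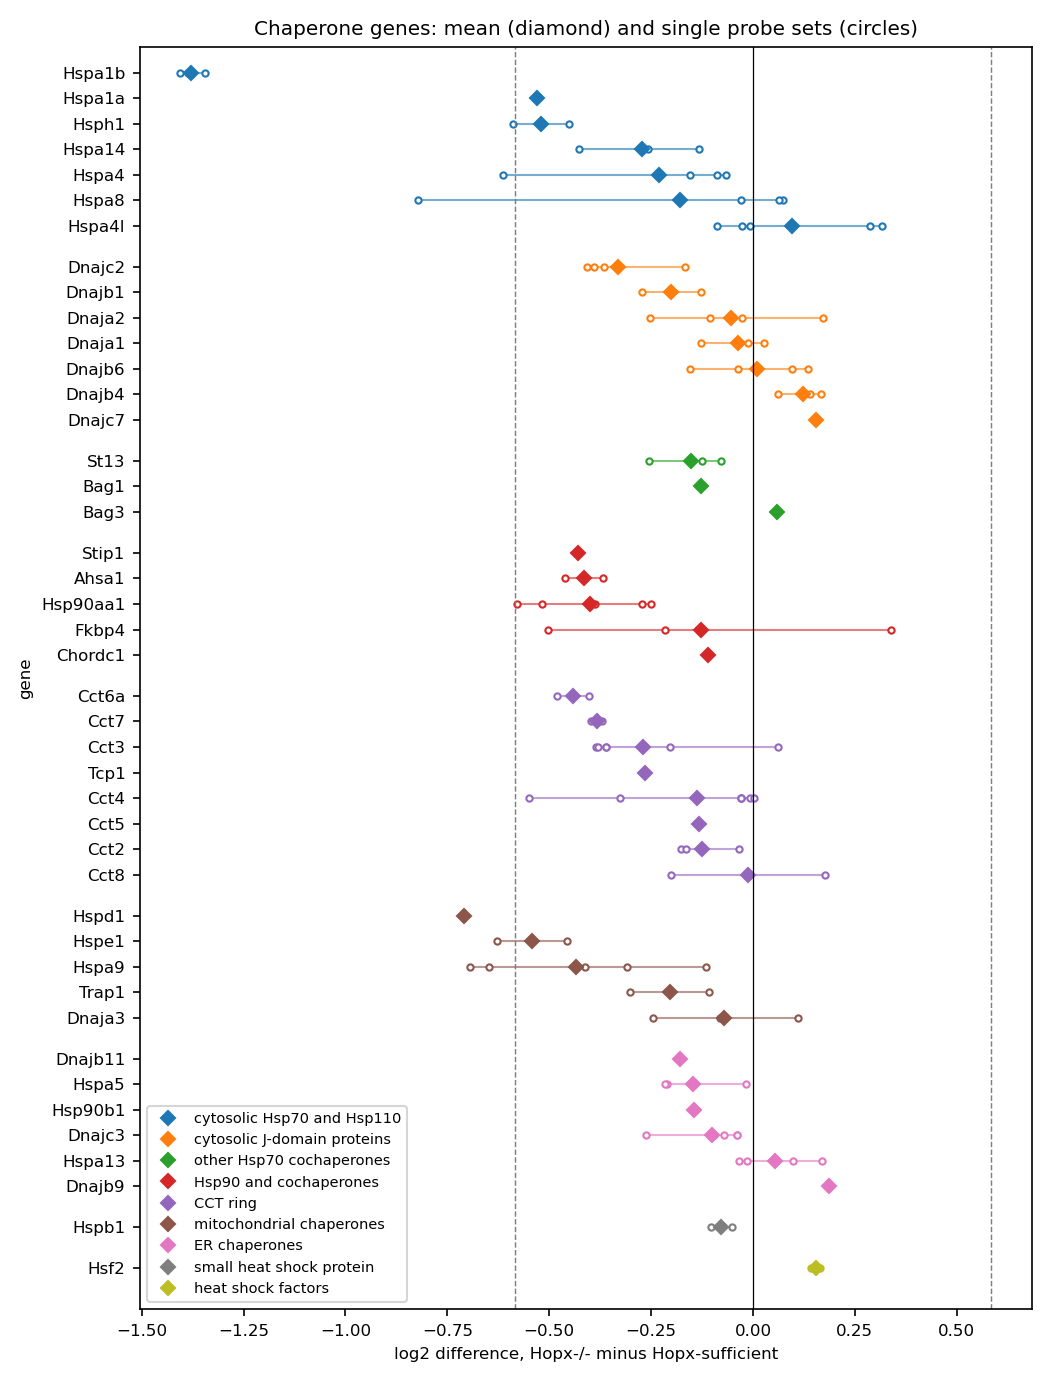
Log2 difference, Hopx-/- minus Hopx-sufficient (horizontal axis), of each of the 43 measured chaperone genes, by group. Diamonds are gene means, circles single probe sets, horizontal lines their range, and dashed lines mark 1.5-fold. Hspa1b stands alone at -1.38, Hspd1 is the other gene past the line at -0.71, and no gene mean exceeds 0.19.

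The cytosolic Hsp70 and Hsp110 genes held the member that differed most. Of the 7 genes 6 were lower, with a median of -0.27, or -0.59 with the most different probe set of each gene and -0.41 over the 6 genes left without suffixed probe sets, whose name endings mark probes that may match more than 1 transcript. Hspa1b, an Hsp70 gene known for strong induction by heat, had a mean deposited value of -0.69 on the Hopx-/- array and 0.69 on the Hopx-sufficient array. Its 3 probe sets lay at -1.39, -1.40 and -1.34, a spread of 0.03 (SD), and its mean of -1.38 (2.60-fold lower) ranked 8 from the lowest among all genes. Hspa1a, its neighbour on chromosome 17, encodes a nearly identical Hsp70. The 1 probe set of Hspa1a had a deposited value of -0.26 on the Hopx-/- array and 0.26 on the Hopx-sufficient array, a difference of -0.53 (1.44-fold lower). Because the transcripts are so alike, how far the probe sets separate these genes is uncertain.

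The upstream stretches of Hspa1b and Hspa1a are shown because the genes differed most among the Hsp70 members and share nearly all of this sequence. Both were taken from RefSeq (GRCm38.p6), 5′ to 3′ on the minus strand, covering the 250 bases before the start site at chr17:34959239-34959488 and chr17:34972157-34972406. Capitals mark GAANNTTC, a pair of inverted units of the heat shock element, the site that heat shock factors are known to bind.
Hspa1b: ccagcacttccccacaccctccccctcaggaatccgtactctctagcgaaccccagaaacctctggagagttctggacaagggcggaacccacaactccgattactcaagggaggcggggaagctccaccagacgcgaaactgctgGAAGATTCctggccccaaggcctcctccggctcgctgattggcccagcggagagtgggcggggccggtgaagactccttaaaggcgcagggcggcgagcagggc
Hspa1a: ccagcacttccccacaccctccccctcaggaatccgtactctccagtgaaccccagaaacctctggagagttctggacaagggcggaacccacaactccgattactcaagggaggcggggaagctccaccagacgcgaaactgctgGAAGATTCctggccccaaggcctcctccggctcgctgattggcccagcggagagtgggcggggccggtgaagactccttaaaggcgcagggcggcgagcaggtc

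The stretches were identical at 247 of 250 bases. Counted from 1 at the 5′ end, with the Hspa1b base first and the Hspa1a base last, the differences were T44C, C47T and G249T. Hspa1l, the next gene on the chromosome and another Hsp70 gene of this cluster, differed by -0.18. The following gene, Lsm2, which encodes a subunit of an RNA-binding ring, differed by -0.61, and D17H6S56E-5 beyond it by -0.17. Neu1, Slc44a4 and Ehmt2 on the other side lay between -0.04 and 0.13.

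Hsph1 encodes an Hsp110 protein, a nucleotide exchange factor for Hsp70 that heat also induces. Its mean deposited value was -0.26 on the Hopx-/- array and 0.26 on the Hopx-sufficient array, and its 2 probe sets lay at -0.45 and -0.59 (mean -0.52, 1.43-fold lower). Hspa4 and Hspa4l encode related Hsp110 proteins, and their means had opposite signs. Hspa4 averaged -0.23, with 1 probe set at -0.61 and 3 between -0.15 and -0.07, whereas Hspa4l averaged 0.10 over 5 probe sets between -0.09 and 0.32. The median over the probe sets of Hspa4l was -0.01, so its direction is uncertain. Hspa14, which works at the ribosome, was 1.21-fold lower, with 3 probe sets between -0.43 and -0.13.

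Hspa8, the constitutive Hsp70 of the cytosol, gave no single answer. Of its 4 probe sets, 3 were near 0, at 0.07, 0.06 and -0.03, and 1 lay at -0.82. Its mean of -0.18 therefore rests on that probe set, and the median over probe sets was 0.02.

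Cytosolic partners of Hsp70 differed little. Of the 7 J-domain genes 4 were lower and 3 higher, with a median of -0.04 (-0.15 with the most different probe set of each gene and -0.01 with the median over probe sets), and Dnajc2 was the only one past the mild rule of 0.32. Dnajc2, a J-domain protein of the ribosome, averaged -0.33, and its 4 probe sets all lay between -0.41 and -0.17. Dnajb1, the heat-inducible J-domain partner of Hsp70, averaged -0.20 with probe sets at -0.27 and -0.13, and Dnaja1 and Dnaja2 lay at -0.04 and -0.05. Dnajb6, which holds aggregation-prone proteins, lay at 0.01 with probe sets of both signs. Dnajb4 (0.12, all 3 probe sets higher) and Dnajc7 (0.16, 1 probe set), a J-domain protein that also binds Hsp90, stood on the other side. Among the other cochaperones, the exchange factor gene Bag1 differed by -0.13, the heat-inducible exchange factor gene Bag3 by 0.06, and St13, whose product Hip steadies the ADP-bound state of Hsp70, by -0.15.

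Hsp90 and its cochaperones were lower in all 5 measured cases, with a median of -0.40, and 3 of them were lower by 0.32 or more. Hsp90aa1, the inducible cytosolic Hsp90, had a mean deposited value of -0.20 on the Hopx-/- array and 0.20 on the Hopx-sufficient array. All 5 of its probe sets were lower, between -0.58 and -0.25, and the mean was -0.40 (1.32-fold lower). Stip1, encoding the adaptor Hop that passes clients from Hsp70 to Hsp90, had 1 probe set, with a deposited value of -0.21 on the Hopx-/- array and 0.21 on the Hopx-sufficient array (1.35-fold lower). Ahsa1, the activator of the Hsp90 ATPase, gave -0.37 and -0.46 by its 2 probe sets (1.33-fold lower). These 3 genes lay within 0.03 of each other, less than the spread between probe sets. Chordc1, an Hsp90-binding zinc protein gene, differed by -0.11. Fkbp4, the immunophilin of steroid receptor complexes, averaged -0.13 over probe sets that disagreed, at -0.50, -0.22 and 0.34.

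All 8 subunit genes of the CCT ring were lower, with a median of -0.20 (1.15-fold lower; -0.33 with the most different probe set of each gene). The ring holds each subunit once per layer, so the genes encode parts of a complex with fixed proportions. Cct6a (-0.44, probe sets at -0.48 and -0.40) and Cct7 (-0.38, probe sets at -0.40 and -0.37) differed most, and both were lower by 0.32 or more. Cct3 (-0.27) and Tcp1 (-0.27) followed, Cct4 (-0.14), Cct5 (-0.13) and Cct2 (-0.13) were close together, and Cct8 was at -0.01. For Cct3, 6 of 7 probe sets were lower and the other stood at 0.06. For Cct4, 5 of 7 probe sets lay between -0.03 and 0.00 and the remaining ones at -0.33 and -0.55. For Cct8 the 2 probe sets had opposite signs, at -0.20 and 0.18. The standard deviation between the means of the 8 subunits was 0.14. The 0.19 between probe sets of a member is a spread of single probe sets and not the error of a gene mean. The order of the subunits was not tested.

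Mitochondrial chaperones had the lowest group median, -0.44 (1.35-fold lower), and all 5 genes were lower. Hspd1, the Hsp60 barrel of the matrix, had 1 probe set, with a deposited value of -0.35 on the Hopx-/- array and 0.35 on the Hopx-sufficient array. Its difference of -0.71 (1.63-fold lower) ranked 102 from the lowest among all genes. Hspe1, the Hsp10 lid that closes this barrel, had a mean deposited value of -0.27 on the Hopx-/- array and 0.27 on the Hopx-sufficient array, and probe sets at -0.63 and -0.46 (mean -0.54, 1.46-fold lower). Hspa9, the Hsp70 that draws proteins into the matrix, had a mean deposited value of -0.21 on the Hopx-/- array and 0.21 on the Hopx-sufficient array. It was lower by all 5 probe sets, at -0.65, -0.69, -0.31, -0.41 and -0.11 (mean -0.44). The barrel, its lid and the import motor were thus the 3 leading genes of the group. Trap1, the Hsp90 of mitochondria, was 1.15-fold lower, and Dnaja3, a J-domain partner of Hspa9, lay at -0.07 with probe sets of both signs.

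Hspd1 and Hspe1 lie head to head on chromosome 1, and the promoter windows around a start site of each share 285 of 300 bases. The window of the other Hspd1 start site shares 4 bases with that of Hspe1. The stretch below lies in this shared window and is shown because the pair held 2 of the lowest differences. It is given 5′ to 3′ on the plus strand, the strand of Hspe1, at chr1:55088035-55088100 (GRCm38.p6, RefSeq). Capitals mark overlapping matches, on either strand, to a heat shock element of 3 units, which is GAANNTTC followed by any 2 bases and GAA.
Hspe1 and Hspd1: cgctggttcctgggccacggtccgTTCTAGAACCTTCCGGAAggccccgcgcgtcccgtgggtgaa

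Genes beside this pair did not share its difference. Coq10b, Sf3b1 and Ankrd44 on one side lay between -0.05 and 0.09, and Mob4, Rftn2 and Mars2 on the other between -0.03 and 0.23.

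ER chaperones lay closer to 0: 4 of 6 were lower, the median was -0.12 (-0.01 over the 4 genes left without suffixed probe sets), and none reached a difference of 0.32 either way. Hspa5, encoding BiP, the Hsp70 of the ER, differed by -0.15, and its 3 probe sets ran from -0.22 to -0.02. Hsp90b1, the Hsp90 of the ER, differed by -0.14 with probe sets at -0.15 and -0.14. Dnajb11 (-0.18) and Dnajc3 (-0.10), J-domain partners of BiP, were on the same side. Dnajb9 (0.19), another BiP partner that restrains the stress sensor IRE1, and Hspa13 (0.05), a microsomal Hsp70, were on the other. Hspb1, the small heat shock protein, lay at -0.08, and Hsf2, the measured heat shock factor, at 0.15 with probe sets at 0.14 and 0.16.

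Promoter windows of 300 bases, 250 before and 50 after a start site (RefSeq, GRCm38.p6), were at hand for 36 of the 43 measured genes. They were searched on both strands for this element of 3 units, for GAANNTTC, which it contains, and for the ER stress element, which is CCAAT, any 9 bases and CCACG. Only exact matches were counted, so a gene without a match may still hold an imperfect element. No window was at hand for Hspa8, Hspa13, Cct4 and St13, nor for Hspa9 (-0.44), Hsp90aa1 (-0.40) and Dnajc2 (-0.33). These genes are outside the counts and medians by element. The element of 3 units was found in windows of 5 members (13.9%), where 0.662% of 27025 genes held it, and GAANNTTC in 12 members (33.3%), where 9.04% of genes held it. Hspd1 and Hspe1 hold it at the same bases, and this shared site counts for both genes. The ER stress element was found in 3 members (8.33%), where 0.137% of genes held it. Besides the pair on chromosome 1, the element of 3 units lay near the start sites of Hsph1, Chordc1 and Dnajb6, shown with it in capitals to set alike sites beside unlike differences. The sites stand at chr5:149636280-149636308 on the minus strand, chr9:18292260-18292288 on the plus strand and chr5:29735828-29735888 on the plus strand.
Hsph1: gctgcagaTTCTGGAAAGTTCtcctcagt
Chordc1: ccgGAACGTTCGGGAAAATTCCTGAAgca
Dnajb6: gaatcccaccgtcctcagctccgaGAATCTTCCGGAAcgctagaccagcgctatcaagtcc

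The 5 members with the element of 3 units had a median of -0.52, against -0.13 for the 31 without it, a description with no test. Within the 5, Hspd1 and Hspe1, which share the same site, and Hsph1 lay between -0.71 and -0.52, but Chordc1 lay at -0.11 and Dnajb6 at 0.01. Among the 7 members with GAANNTTC alone, which ran from -1.38 to 0.06 with a median of -0.13, Hspa1b and Hspa1a were the lowest, and Fkbp4, Cct2, Hspb1, Dnaja1 and Bag3 lay between -0.13 and 0.06. Conversely, Cct6a, Stip1, Ahsa1 and Cct7, all lower by 0.32 or more, had neither GAANNTTC nor the element of 3 units in these windows. Across the array, the 88 measured genes with the element of 3 units had a median of -0.01, and the 1099 with GAANNTTC a median of 0.00 (-0.0024), close to that of genes without them.

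The 3 members with the ER stress element are shown because their differences were nearly equal, at -0.15 for Hspa5, -0.14 for Hsp90b1 and -0.10 for Dnajc3. Their median of -0.14 was close to the -0.13 of the 33 members with a window but without the element. Across the array, the 20 measured genes with the element had a median of -0.08, and 55% of them were lower. No test was made. The element is in capitals in stretches at chr2:34772001-34772067 on the plus strand, chr10:86705614-86705680 on the minus strand, where Hsp90b1 has a second match, and chr14:118937803-118937869 on the plus strand.
Hspa5: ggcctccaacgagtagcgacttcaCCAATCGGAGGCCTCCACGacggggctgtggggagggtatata
Hsp90b1: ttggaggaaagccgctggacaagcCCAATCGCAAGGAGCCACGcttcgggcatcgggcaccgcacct
Dnajc3: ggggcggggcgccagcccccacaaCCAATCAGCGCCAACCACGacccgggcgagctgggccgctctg

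**Figure D3:**
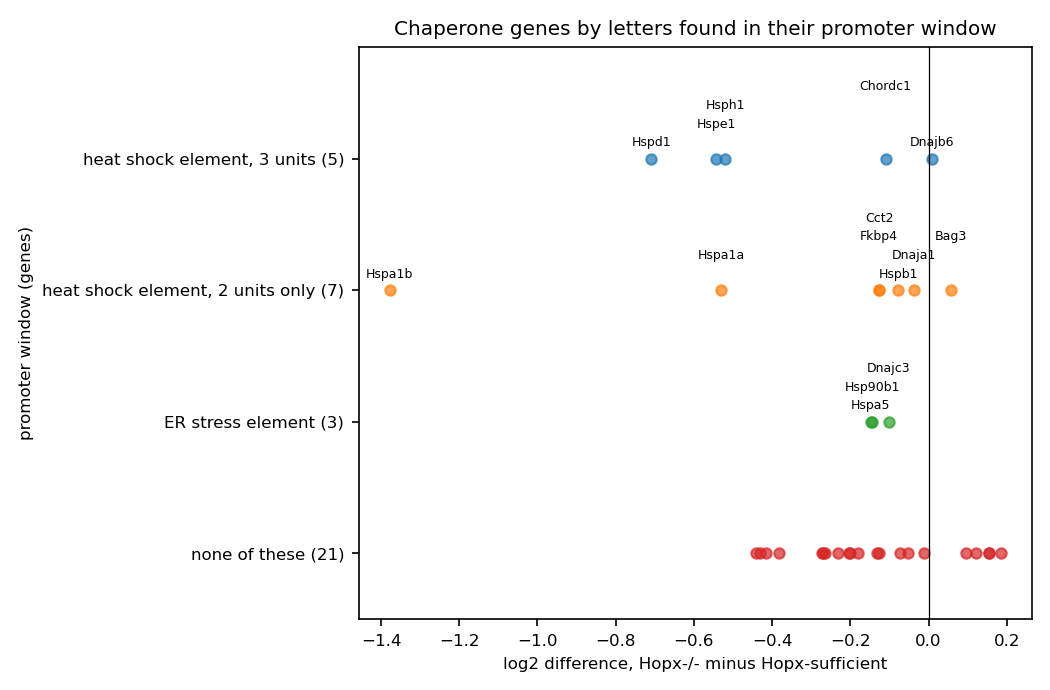
Log2 difference, Hopx-/- minus Hopx-sufficient (horizontal axis), of the 36 chaperone genes with a promoter window, in rows by the letters found there; each point is a gene. Genes with a heat shock element run from Hspa1b at -1.38 to Bag3 at 0.06, and the 21 genes with none of the elements from -0.44 to 0.19.

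Other genes of protein folding and quality control, from lists that hold no member, stood as follows. The lists of mitochondrial folding factors and proteases and of the 26S proteasome were lower in nearly all genes. Of 16 further mitochondrial genes 14 were lower, 8 of them by 0.32 or more, with a median of -0.34. Timm8a1 (1.77-fold lower, probe sets at -0.85 and -0.80) and Timm10 (-0.57), which escort proteins across the space between the membranes, and Lonp1 (-0.52), the matrix protease, differed most. Of 34 proteasome genes 32 were lower, 5 of them by 0.32 or more, with a median of -0.21, led by Psmb7 (-0.58), Psmd1 (-0.45) and Psmb2 (-0.36). Set beside these, the median of the chaperone genes (-0.15) was no further from 0, and a difference between the lists was not tested.

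Further Hsp90 cochaperone genes were lower in 12 of 15 cases, with a median of -0.18. The paired ATPases Ruvbl2 (1.60-fold lower) and Ruvbl1 (-0.41), which assemble large complexes with Hsp90, and Nudc (-0.52) differed most. Prefoldin and tubulin-folding genes, which supply and follow the CCT ring, were lower in 10 of 14 cases, with a median of -0.13, led by the prefoldin subunit genes Pfdn4 (-0.56), Pfdn2 (-0.36) and Pfdn1 (-0.34). The remaining Hsp70 system was less uniform: 14 of 21 genes were lower, with a median of -0.07. Bag2, an exchange factor gene, was 1.52-fold lower, and the J-domain genes Dnajb2 (0.41) and Dnajb14 (0.34) were higher. The other small heat shock protein genes had a median of -0.01 over 8 genes, with Hspb6 at 0.40, Hspb2 at -0.38 and Hspb8 at -0.17.

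Of 23 further ER folding genes 19 were lower, with a median of -0.16. Sdf2l1 (1.60-fold lower), Creld2 (-0.57) and Manf (-0.43), 3 ER proteins known to be induced with BiP, differed most. Genes of the unfolded protein response, by contrast, had a median of -0.06, with 9 of 16 lower. Chac1 (-0.48) and Asns (-0.43, probe sets at -0.68 and -0.19) were lower, and Ppp1r15a (0.47), whose product reverses the translation block, was higher.

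Immediate-early genes, which tissue dissociation is known to induce together with heat shock genes, stood on the other side of 0. Of 13 genes 10 were higher, with a median of 0.25, and Fos (2.15-fold), Dusp1 (1.59-fold) and Zfp36 (1.53-fold) were highest. How handling of the cells contributed to either set was not tested. The transferrin receptor control probe sets differed by -0.29 at the 3′ end and -0.82 at the 5′ end, those of beta-actin by 0.00 (-0.0047 and -0.0050) and those of Gapdh by -0.24 and -0.15, so these controls of transcript ends did not give 1 common shift.

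**Figure D4:**
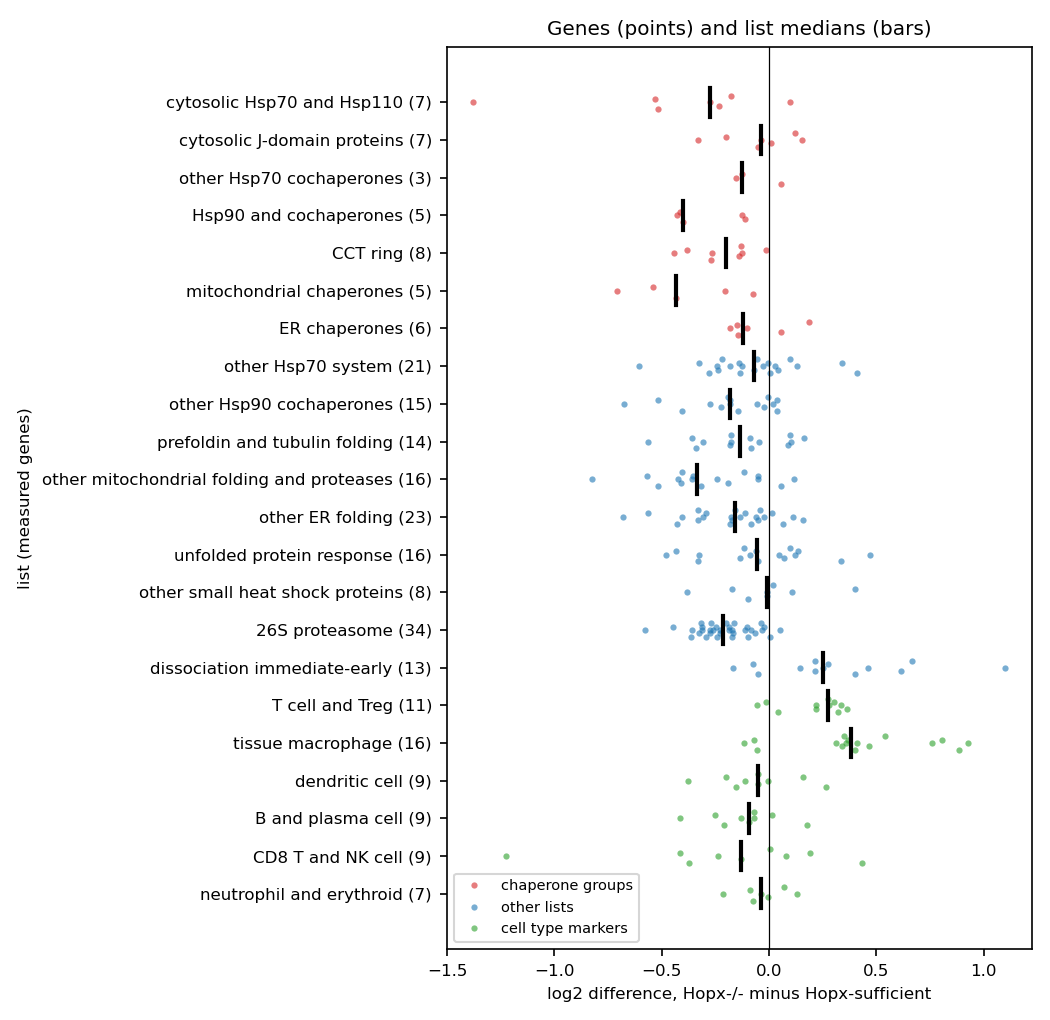
Log2 difference, Hopx-/- minus Hopx-sufficient (horizontal axis), of the genes in each list (points) with the list's median (bar) and the number of measured genes in parentheses. Medians of the chaperone groups run from -0.44 in mitochondria to -0.04 for J-domain genes. Those of tissue macrophage markers (0.38), T cell and Treg markers (0.28) and immediate-early genes (0.25) lie above 0.

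Marker genes of cell types also differed between the arrays. Of 11 measured markers of T cells and Tregs 9 were higher, with a median of 0.28. Ikzf2 (0.37), Ctla4 (0.33) and Cd5 (0.32) were highest, and Il2ra, which encodes the CD25 used in the sort, was lowest at -0.06. Of 16 tissue macrophage markers 13 were higher, with a median of 0.38, and 4 were past 1.5-fold: Hmox1 (1.90-fold), Mrc1 (1.85-fold), Slc40a1 (1.75-fold) and Fcna (1.69-fold). Markers of dendritic cells had a median of -0.05 (7 of 9 lower, with H2-Ab1 at -0.38, Xcr1 at 0.27 and Siglech at -0.20). Those of B and plasma cells had a median of -0.09 (7 of 9 lower, with Cd79a at -0.41, Mzb1 at -0.25 and Ms4a1 at -0.21). Those of CD8 T and NK cells had a median of -0.13 (5 of 9 lower, with Gzma 2.34-fold lower, Nkg7 at 0.43 and Klrd1 at -0.42). Neutrophil and erythroid markers had a median of -0.04 (5 of 7 lower, with Mpo at -0.21, S100a8 at 0.13 and Camp at -0.09). Since the table holds no levels, which of these markers were at background cannot be said, and the part of other cells in the chaperone differences was not tested.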

How the data were processed

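Per the labels' protocols, RNA came from a Trizol extraction with a QIAGEN clean-up, and sample titles gave the groups. The authors deposited log-scale values taken here as log2; scanner software, summarisation, normalization and log base are not given in the sources used here. The 2 columns of every row sum to 0 within 1e-06, so each probe set had been centred on the mean of the arrays, and 2.04% of the probe sets with 1 symbol had the same value on both arrays. With natural logs every log2 difference would be 1.44 times larger. The number of arrays limits the precision.

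Names of probe sets came from the platform annotation of 2016, updated by gene ID (GRCm38.p6) for 34741 of 34945 probe sets with 1 symbol. Gene values leave out 64 control probe sets, 9160 without a symbol and 932 with more than 1. Differences were centred on their median and averaged over the probe sets of a gene. A log2 difference of 0.32 and folds of 1.5 and 2 are rules of size and not tests. The summary was run on shuffled differences with known shifts added, which checks its arithmetic and not the differences reported here. All members are named; from every other list the genes past 1.5-fold and the 3 that differed most are named, with the neighbours of the Hspa1 and Hspd1 pairs chosen after their values were seen. The members and lists were chosen with earlier results of these data known. Alternatives were no centring, the median or most different probe set, removal of probe sets with a suffix or the finest value steps, natural logs and other folds. The tools were Python 3.11.15 with pandas 2.3.3 and numpy 2.4.6.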

Additional observations from a re-analysis of the deposited data

How the results depend on the processing

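No paired analysis was possible because there were only 2 arrays, 1 of each genotype; leaving out either leaves no difference. The median of all members kept its sign under the 7 alternatives run, between -0.26 (most different probe set) and -0.14, and so did that of the cytosolic Hsp70 and Hsp110 genes under 7 and those of the other member groups of more than 1 measured gene under 6 each. The median of the ER chaperones was -0.01 without suffixed probe sets, against -0.12. That of the J-domain genes was -0.15 with the most different probe set and -0.01 with the median over probe sets, against -0.04, and that of the CCT ring -0.33 with the most different probe set, against -0.20. Without suffixed probe sets the median of the other Hsp70 system was -0.14, that of the unfolded protein response -0.03 and that of the other small heat shock proteins -0.06. An alternative was taken as a shift when it moved a value by more than 0.18, the standard deviation between probe sets of a gene, or a count by more than 1.5 times. With the most different probe set of each gene, the median of the cytosolic Hsp70 and Hsp110 genes was -0.59 and that of the mitochondrial chaperones -0.63; natural logs also gave -0.63 for the mitochondrial chaperones. Without Hspa1a and Hspa1b, an alternative chosen after seeing the data, the median of all members was -0.14. The number of members at least 1.5-fold lower was 2. It was 7 with the most different probe set, 4 of 38 without suffixed probe sets and 9 with natural logs. With other rules of size it was 12 at a log2 difference of 0.32 and 1 at 2-fold. The share of all genes was not taken with the most different probe set, without suffixed probe sets or with natural logs. Without that share, those counts cannot be read as particular to the chaperone genes. No member was 1.5-fold higher under any alternative run. Hspa8 (0.02) and Hspa4l changed sign with the median over probe sets, Dnajb6 with the most different one, and Dnajb6, Fkbp4 and Cct8 without suffixed probe sets, where Hspa8 was at -0.83.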
